A study of Mus musculus with 12 samples.

Results

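The loci of 5 zinc finger genes, Sall1, Sall2, Sall3, Sall4 and Zbtb16, were examined in the β-catenin and H3K27ac ChIP-seq peak lists of mouse forelimb buds. A summit, the highest point of a called peak, was assigned to a gene when it lay within 200 kb of the gene body in the mouse build mm10. These 5 genes are among the 21938 protein-coding genes of the annotation, and their windows held 23 of the 16238 β-catenin summits and 54 of the 31466 H3K27ac summits of the wild-type control consensus lists. After C59 they held 0 of 224 and 57 of 30166. All embryos were WT Swiss Albino. Pregnant females were injected at E10.5 with C59, an inhibitor of porcupine that blocks the secretion of WNT ligands, or with the DMSO solvent alone (the wild-type control), and forelimb buds were dissected 6 h later. Each antibody and treatment has 2 biological replicates made from pooled forelimb buds. Chromatin for the β-catenin antibody was crosslinked with DSG in addition to formaldehyde.

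The Sall genes encode relatives of the Drosophila spalt protein with several pairs of zinc fingers, which act in the nucleus mostly as repressors, and mutations of human SALL1 and SALL4 cause syndromes with malformed thumbs and forearms. Zbtb16 encodes PLZF, a repressor with a BTB domain and zinc fingers that is required for normal patterning of the mouse limb skeleton. When WNT ligands bind their receptors, β-catenin accumulates in the nucleus and joins TCF/LEF proteins on DNA, where it promotes transcription. H3K27ac, the acetylation of histone H3 at lysine 27, marks active promoters and enhancers.

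Sequences at the strongest and the core-bearing β-catenin sites of Sall1, Sall4 and Zbtb16 come first, because the landscapes described afterwards turn on them. The Sall3 sites, which include the strongest site and 3 of the 7 with a core, are described below without their sequences. Each line is the window of 200 bp around a wild-type consensus summit, read on the plus strand of GRCm38, and sites are lettered by position within each locus. Capitals mark the core of the TCF/LEF motif, which was searched as ATCAAAG or TTCAAAG on both strands, so that CTTTGAT and CTTTGAA are the same words on the minus strand. Sall1 site B is at chr8:89006556-89006755, in intergenic DNA 37.5 kb downstream of the Sall1 transcriptional start site (TSS). Sall4 site D is at chr2:168644001-168644200, in an intron of Atp9a. Sall4 site F is at chr2:168874463-168874662, intergenic. Zbtb16 site A is at chr9:48755822-48756021, in an intron of Zbtb16.
Sall1 site B: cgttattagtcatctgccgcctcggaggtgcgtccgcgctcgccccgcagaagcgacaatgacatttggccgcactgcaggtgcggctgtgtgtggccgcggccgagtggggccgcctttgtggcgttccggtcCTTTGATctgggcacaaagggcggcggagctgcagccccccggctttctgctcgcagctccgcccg
Sall4 site D: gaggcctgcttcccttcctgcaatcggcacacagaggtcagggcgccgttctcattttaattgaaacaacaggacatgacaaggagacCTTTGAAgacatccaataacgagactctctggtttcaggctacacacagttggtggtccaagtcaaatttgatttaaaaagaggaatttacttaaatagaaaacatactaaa
Sall4 site F: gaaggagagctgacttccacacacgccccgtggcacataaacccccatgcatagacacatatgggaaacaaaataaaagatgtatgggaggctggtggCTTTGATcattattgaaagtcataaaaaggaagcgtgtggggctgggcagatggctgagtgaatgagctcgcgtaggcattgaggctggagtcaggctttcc
Zbtb16 site A: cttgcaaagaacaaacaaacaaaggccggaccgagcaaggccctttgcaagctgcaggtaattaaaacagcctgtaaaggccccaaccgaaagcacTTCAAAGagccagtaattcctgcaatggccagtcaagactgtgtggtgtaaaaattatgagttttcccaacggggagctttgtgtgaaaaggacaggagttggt

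Strong sites without the core are shown for comparison. Sall4 site E is at chr2:168860044-168860243, in intergenic DNA 92.2 kb upstream of the Sall4 TSS. Zbtb16 site B is at chr9:48758031-48758230 and Zbtb16 site D at chr9:48823028-48823227, both in Zbtb16 introns. Site D is the only site of the 5 loci that was also called after C59.
Sall4 site E: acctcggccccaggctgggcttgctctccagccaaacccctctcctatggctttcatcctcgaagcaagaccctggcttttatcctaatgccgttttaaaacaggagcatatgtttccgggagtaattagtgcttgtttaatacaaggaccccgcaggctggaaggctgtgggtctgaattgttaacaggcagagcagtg
Zbtb16 site B: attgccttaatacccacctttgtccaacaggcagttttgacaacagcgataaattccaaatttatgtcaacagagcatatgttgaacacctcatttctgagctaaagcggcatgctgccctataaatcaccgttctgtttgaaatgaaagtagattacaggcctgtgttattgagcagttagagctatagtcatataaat
Zbtb16 site D: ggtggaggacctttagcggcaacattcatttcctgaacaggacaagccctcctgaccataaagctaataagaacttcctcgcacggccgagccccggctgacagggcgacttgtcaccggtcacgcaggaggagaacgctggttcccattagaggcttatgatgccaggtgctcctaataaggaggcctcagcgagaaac

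Libraries of the same antibody differed little in depth, and all lists had the same q threshold of 0.05. The −log10 p that this q required differed between the β-catenin lists. The lowest listed was 3.89 and 3.79 in the control replicates and 5.69 and 5.72 in the C59 replicates. The fold enrichment of a summit is its coverage over the coverage that the peak caller expected there, and together with its p-value it gives the number of fragments at the summit. By this measure, β-catenin libraries held 2.93 to 3.42 Gb of fragments and H3K27ac libraries 5.03 to 5.93 Gb. At the background coverage of a library, 8 fragments at a summit were enough for the lists of both control β-catenin replicates, whereas 11 were needed in both C59 replicates (fold enrichments of 4.24 and 4.26). A summit that is not listed is therefore not shown to be absent. The landscape of Tbx5, which is active in forelimb but not hindlimb buds, held 22 and 24 H3K27ac summits in the control replicates and 25 and 25 after C59. Chromatin came from whole buds, so that fewer cells with an occupied site and less occupancy per cell cannot be told apart.

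In wild-type controls, β-catenin was called at all 5 loci, and after C59 nearly all of these sites were no longer listed. The control replicates held 31 and 39 summits at the 5 loci (35.0 ± 5.66, SD, n = 2) and the C59 replicates 0 and 1 (0.50 ± 0.71, n = 2). The groups did not overlap, and the mean difference of 34.5 summits per replicate gave p = 0.333 in a two-sided exact permutation test (0.667 after Benjamini-Hochberg adjustment over the β-catenin and the H3K27ac comparison). With 2 libraries against 2, this test cannot give a p below 0.333. Counting only those control summits that reached the lowest −log10 p of the same-numbered C59 list left 26 and 31, against the same 0 and 1. Over the whole lists of control replicates 1 and 2, 85.6% and 79.4% of summits reached it. The lists as a whole fell as well, from 16238 to 224 consensus summits. None of the 23 control consensus summits lay inside a C59 consensus peak (0 of 23, which allows a share of up to 13%), against 1.12% of all 16193 control consensus summits on chromosomes 1 to 19, X and Y. Inside a peak of either C59 replicate lay 1 of 23 (4.35%, exact 95% interval 0.11 to 21.9%), against 2.3% of all. Intervals of shares cover counting error only.

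**Figure D1:**
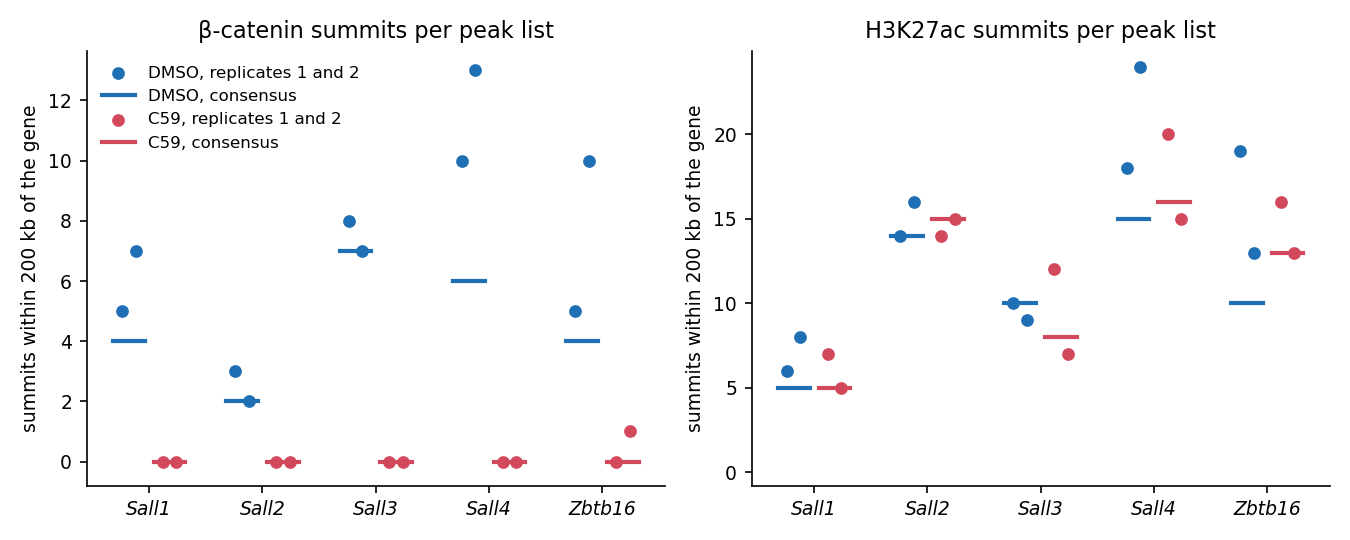
Number of β-catenin (left) and H3K27ac (right) summits within 200 kb of each gene, with 1 point per replicate and a line for the consensus list, in wild-type controls (DMSO, blue) and after C59 (red). β-Catenin counts were 2 to 13 per control replicate and 0 after C59 with the exception of 1 summit at Zbtb16, whereas H3K27ac counts of both treatments lie in the same range.

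The loci differed in how many β-catenin summits they held. Sall4 had 10 and 13 in the control replicates and 6 in the consensus list, Sall3 had 8 and 7 with 7 in the consensus list, Sall1 had 5 and 7 with 4, Zbtb16 had 5 and 10 with 4, and Sall2 had 3 and 2 with 2. Sall2 lay below every other locus in both replicates, the ranges of Sall1, Sall3 and Zbtb16 overlapped, and that of Sall4 met that of Zbtb16 at 10. A consensus summit was found within 200 kb of all 5 members and of 74.8% of all protein-coding genes, with a median of 2 per gene genome-wide. By number, 90.9% of coding genes had fewer consensus summits than Sall3, 86.8% fewer than Sall4, 72.2% fewer than Sall1 and Zbtb16 (which had equal numbers), and 43.7% fewer than Sall2. The Zbtb16 window is the longest (582 kb, for a gene of 182 kb), and per 100 kb its consensus count was 0.69, against 1.67 for Sall3, 1.43 for Sall4, 0.96 for Sall1 and 0.48 for Sall2. After C59, 1.53% of coding genes had a consensus summit in their window, and none of the 5 genes did.

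Other limb bud regulators gave the frame for these counts. Among 8 genes that act with the members in limb buds, 7 had a control consensus summit (median 9.5, range 0 to 21). The highest counts of these were 21 at Hoxd13, which patterns the digits, and 11 at Gli3, the effector that represses SHH targets and acts with Zbtb16 in the proximal limb. Tbx5, which acts with Sall4, and Fgf10, the mesenchymal signal to the apical ridge, had 10 each. Shh had none in the consensus list and 1 summit in each control replicate list, and sites further than 200 kb from a gene were not counted. Among 10 other zinc finger regulators, 10 had a summit (median 6.5, range 2 to 15), from Sp6, Sp8 and Osr2 with 2 each to Tshz2 with 15. The 5 members had a median of 4 and a range of 2 to 7. After C59, a consensus summit was listed at Hand2 (1 summit) and at no other gene of these lists.

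**Figure D2:**
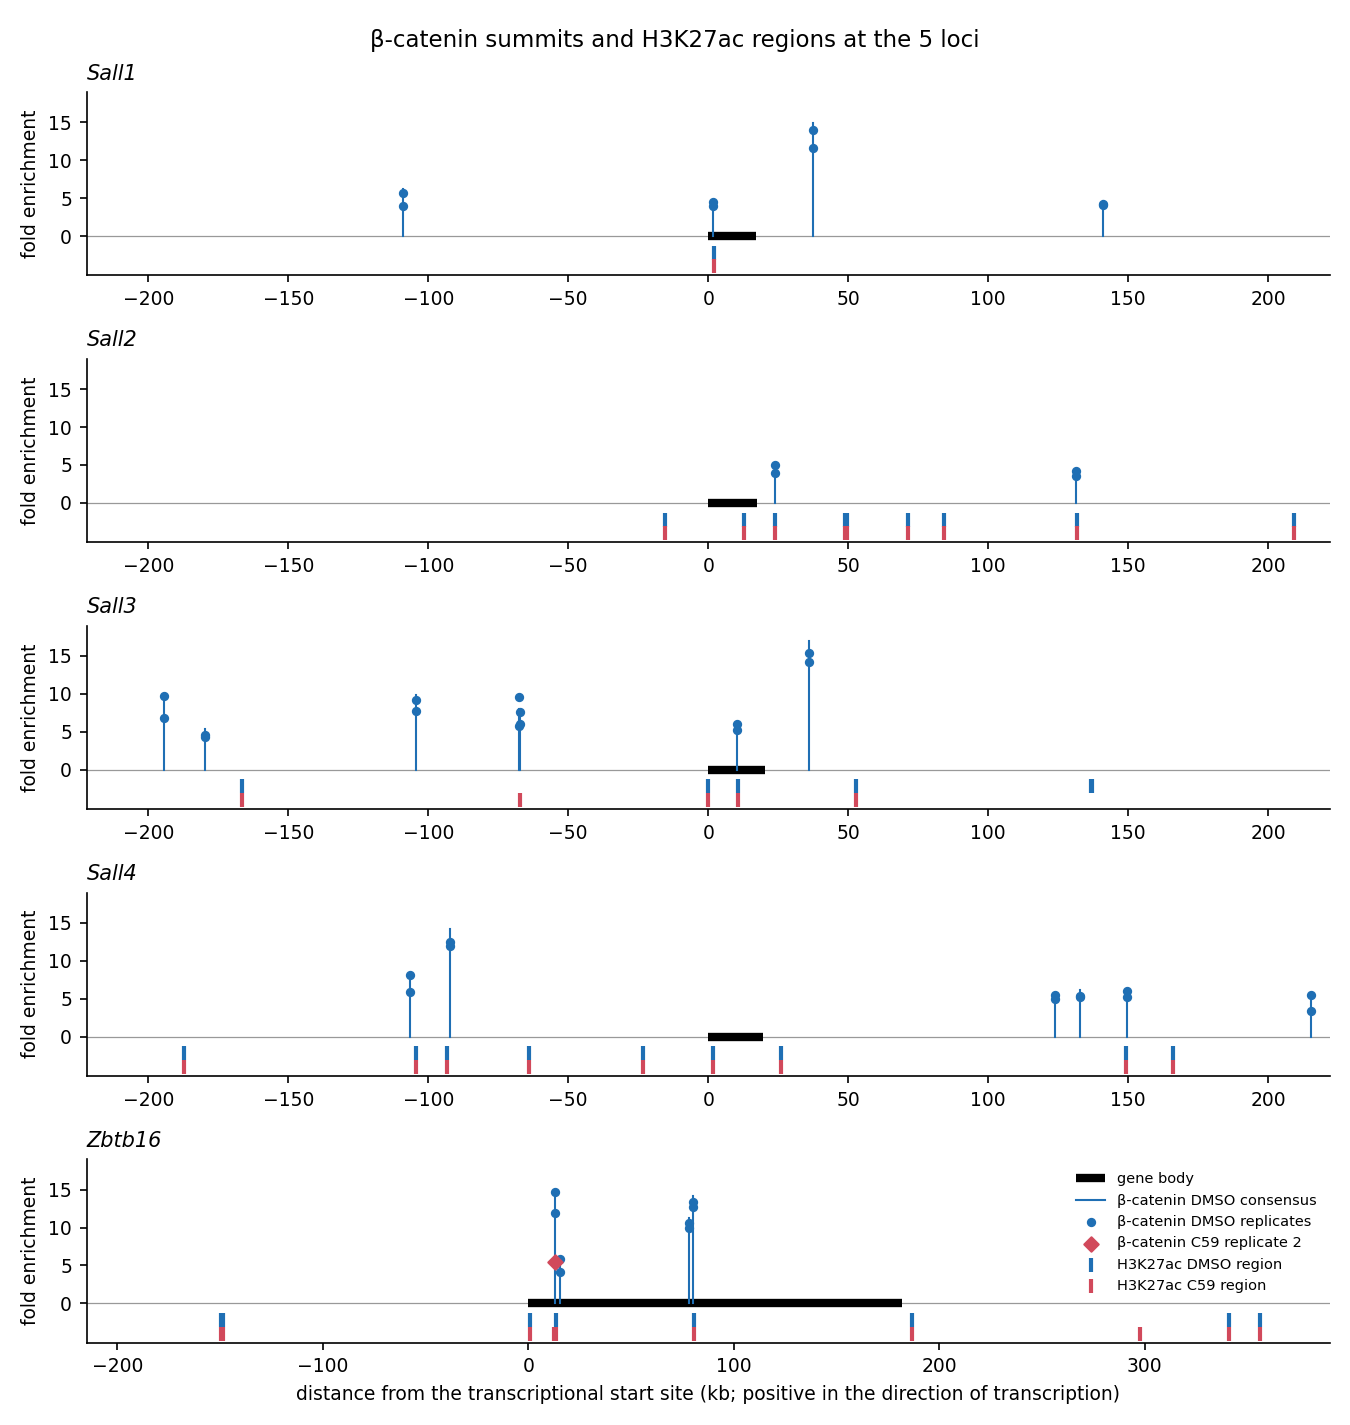
Fold enrichment of the 23 β-catenin control consensus summits (blue lines) and of the same sites in each control replicate (blue points) against distance in kb from the TSS, with the gene body in black, the C59 replicate 2 summit as a red diamond, and H3K27ac regions of controls (upper, blue) and C59 (lower, red) as ticks. The strongest sites lay 37.5 kb downstream at Sall1, 35.9 kb downstream at Sall3, 92.2 kb upstream at Sall4 and within the gene at Zbtb16.

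β-Catenin sites at these loci were mostly distal, and 0 of the 23 lay less than 1 kb from the TSS of a member. Of the 23, 6 lay in introns of the member itself, 5 in other protein-coding genes and 12 outside coding genes. Only 3 were less than 1 kb from any TSS (13%, exact 95% interval 2.78 to 33.6%, against 16.3% of all control summits), and these belonged to neighbouring genes. For 15 sites, the nearest coding TSS was that of the member, where only the 5′ end of each gene counted, not every transcript start. As the consensus list requires, all 23 were listed in both control replicates. Their replicate summits were displaced from the consensus position by a median of 11 bp in replicate 1 and 10 bp in replicate 2. The largest displacements were 127 bp in replicate 1 (Sall2 site A) and 208 bp in replicate 2 (Sall2 site B). The fold enrichment of replicate 2 divided by that of replicate 1 had a median of 1.05 and ranged from 0.61 to 1.65. In replicate 1, 21 of 23 sites (91.3%, exact 95% interval 72 to 98.9%) reached the lowest −log10 p of the C59 list of the same number. In replicate 2 it was also 21, with 19 reaching it in both. Of all summits in control replicates 1 and 2, which include summits outside the consensus list, 85.6% and 79.4% reached it. The median consensus fold enrichment was 6.31, against 6.76 for all control summits, and 5 of the 23 sites reached the 90th percentile of all summits (12.8).

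At Sall1, which has no other protein-coding gene in its window, a single site stood far above the rest. Site B had a fold enrichment of 11.6 in control replicate 1 and 14.0 in replicate 2 (39 and 60 fragments), 14.9 in the consensus list, and was not listed in either C59 replicate. Its window has a GC content of 68.0% and holds its TCF/LEF core 37 bp from the summit. The other sites were weaker. Site D, 109 kb upstream, had fold enrichments of 4.02 and 5.69, site A, 141 kb downstream, of 4.28 and 4.08, and site C, in the Sall1 intron 1.63 kb from the TSS, of 4.01 and 4.53. Site C was the only Sall1 site inside an H3K27ac region, and that region was listed in all 4 H3K27ac libraries.

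Sall2 differed from the other loci in that both of its sites lay at promoters of neighbouring genes. Site A was 0.079 kb from the TSS of Supt16, a subunit of the histone chaperone FACT, with fold enrichments of 3.58 and 4.18 (9 and 11 fragments). Site B was 0.047 kb from the TSS of Mettl3, the catalytic subunit of the RNA adenosine methyltransferase, with 5.02 and 3.91 (12 and 10 fragments). These distances are those of the consensus summits. Site A was displaced by 127 bp from its consensus position in replicate 1, and site B by 208 bp in replicate 2. Both were near the threshold. Site A did not reach the lowest −log10 p of the C59 list in replicate 1 and site B did not reach it in replicate 2. Both lay inside H3K27ac peaks of all 4 libraries.

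Sall3 carried the strongest site of the 5 loci. Site A, intergenic and 35.9 kb downstream of the TSS, had a fold enrichment of 15.4 and 14.2 in the control replicates (55 and 54 fragments) and 16.9 in the consensus list, with a core 36 bp from the summit. It is closer to the TSS of Atp9b, a phospholipid flippase (16.8 kb), than to that of Sall3. A row of sites extended upstream. Sites C and D, in a single peak 67.2 and 67.5 kb upstream, had 6.01 and 7.67, and 5.79 and 9.58, respectively, with a core 6 bp from the summit of site C. Site E, 104 kb upstream and with a core 31 bp from its summit, had 7.70 and 9.20, and site G, 194 kb upstream, had 9.78 and 6.79. Site F, 180 kb upstream (4.58 and 4.27), and site B, in the Sall3 intron (5.2 and 6.06), were the weakest. None of these 7 sites was listed after C59.

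At Sall4 the strongest sites lay upstream of the gene. Site E had fold enrichments of 12.4 and 11.9 (43 and 44 fragments) and no core in its window, and site F, 107 kb upstream, had 5.87 and 8.15 with a core 1 bp from its summit. On the other side, 4 sites lay 124 to 215 kb downstream, in or near Atp9a and Nfatc2. Sites C and D, in introns of Atp9a, another flippase gene, had 5.29 and 5.19, and 5.53 and 4.98. Site B, intergenic, had 5.27 and 6.02. Site A, in an intron of Nfatc2, which encodes a calcium-regulated transcription factor, had 5.54 and 3.40, and its second value lay under the level needed for the C59 lists. Site E was the site nearest to the Sall4 TSS.

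At Zbtb16 all 4 sites lay in introns of the gene, in pairs. The outer pair was 80.3 and 78.1 kb into the gene. Site A had fold enrichments of 12.7 and 13.4 (71 and 89 fragments), and its core was centred 1 bp from the summit. Site B had 10.6 and 9.89 (60 and 66 fragments). The inner pair was 15.2 and 13.1 kb into the gene. Site C had 4.18 and 5.83, and site D had 14.7 and 11.9 (84 and 85 fragments). Site D was the only site of the 23 that was listed after C59. It was listed in C59 replicate 2 with a fold enrichment of 5.44 (16 fragments, −log10 q of 5.02), below both control values, and was not listed in C59 replicate 1 or in the C59 consensus list. In the control replicates, the expected coverage at Zbtb16 sites was 4.66 to 6.21 fragments, higher than at the other loci (1.57 to 3.42). Its sites therefore held more control fragments than sites of similar fold enrichment at Sall1, Sall3 and Sall4. The C59 fold enrichment of site D is over a lower expected coverage than its control values, so that these values rest on different backgrounds.

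**Figure D3:**
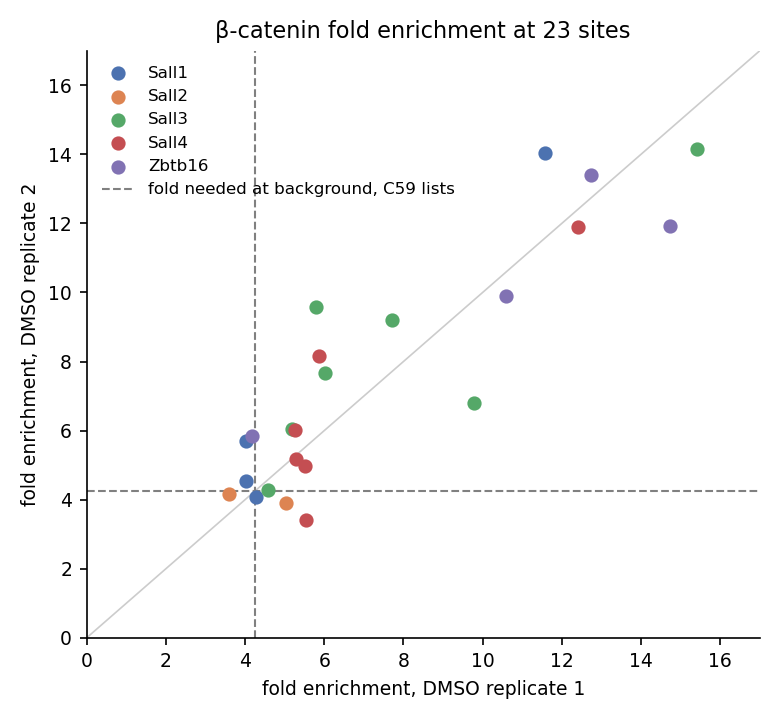
β-Catenin fold enrichment of the 23 sites in control replicate 1 (horizontal) and control replicate 2 (vertical), coloured by locus, with dashed lines at the fold enrichment needed at background coverage in C59 replicates 1 (4.24) and 2 (4.26). The strongest sites of Sall1, Sall3, Sall4 and Zbtb16 lie between 11.6 and 15.4 in both replicates, whereas the Sall2 sites lie near the dashed lines.

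The TCF/LEF core was present at Sall1, Sall3, Sall4 and Zbtb16 but at neither Sall2 site. It was found in 7 of 23 windows (30.4%, exact 95% interval 13.2 to 52.9%), against 28.6% of all 16193 control windows. All 7 were centred within 37 bp of the summit, and 4 of them within 10 bp. The same distances were not measured for cores genome-wide, so closeness to the summit is not shown to be particular to these loci. Of the 5 sites at or above the 90th percentile of fold enrichment, 3 carried a core, against 44.1% of the 1620 such summits genome-wide. Cores of other factors were searched on both strands as CAGCTG (a bHLH word), TAATTA (a homeodomain word), CATAAA (a Hox word) and AAACAG (a Prdm word). CAGCTG was present in 3 of 23 windows (13%, against 18.8% of all), TAATTA in 6 (26.1%, against 14.8%), CATAAA in 7 (30.4%, against 23.3%) and AAACAG in 5 (21.7%, against 23.9%), and each genome-wide share lay inside the exact 95% interval of the sites. The median GC content of the windows was 50.5%, against 45.5%. In RefSeq promoter windows of GRCm38.p6, which were found for Sall1 (3 windows) and Sall2 (2 windows), a core was present in 0 of 5, against 8.65% of 32851 promoter windows.

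H3K27ac was listed at all 5 loci in both treatments, and the counts of the treatments overlapped. The control replicates held 67 and 70 summits (68.5 ± 2.12, SD, n = 2) and the C59 replicates 69 and 55 (62.0 ± 9.90, n = 2). These ranges overlapped, and the difference of 6.50 gave p = 0.667 in the two-sided exact permutation test (0.667 adjusted). By locus, the 2 control and 2 C59 replicates held 6, 8, 7 and 5 summits at Sall1, 14, 16, 14 and 15 at Sall2, 10, 9, 12 and 7 at Sall3, 18, 24, 20 and 15 at Sall4, and 19, 13, 16 and 13 at Zbtb16. Of the 34 regions in the control consensus list, 32 overlapped a C59 region (94.1%, exact 95% interval 80.3 to 99.3%), against 87.1% of all control regions. In the other direction, 31 of 34 C59 regions overlapped a control region (91.2%, against 89.3%).

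Promoter acetylation of the members was present in both treatments and ranged widely between genes. Fold enrichments of H3K27ac less than 1 kb from any annotated TSS of the gene are given in the order control replicates 1 and 2, then C59 replicates 1 and 2. Sall2 was highest, at 18.1, 16.6, 18.1 and 15.6. Sall4 followed with 8.0, 8.98, 8.77 and 8.92, then Zbtb16 with 5.06, 6.54, 4.82 and 6.15, and Sall3 with 5.43, 5.54, 5.46 and 6.02, which did not differ from Zbtb16 beyond the spread of the libraries. The 5.46 of Sall3 in C59 replicate 1 came from an intronic start site, in a region centred 10.8 kb into the gene. The region at the 5′ start of Sall3 had 5.43, 5.54, 5.37 and 6.02 in the same order. Sall1 was lowest, at 2.87 and 2.95 in controls and 3.20 and 3.67 after C59. These Sall1 values are those of the summit next to the TSS, and the highest values of the whole region around it overlapped (4.07 and 4.22 in controls, 4.47 and 3.67 after C59).

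At Sall2, this mark was at 1 of the 2 annotated start sites. The RefSeq promoter windows, 250 bases before to 50 after each start, are shown because H3K27ac distinguished them. Promoter 1 is at chr14:52328621-52328920 and promoter 2, inside the gene body, at chr14:52316274-52316573, both on the minus strand of GRCm38.p6. No TCF/LEF core is present in either, so that no base is in capitals.
Sall2 promoter 1: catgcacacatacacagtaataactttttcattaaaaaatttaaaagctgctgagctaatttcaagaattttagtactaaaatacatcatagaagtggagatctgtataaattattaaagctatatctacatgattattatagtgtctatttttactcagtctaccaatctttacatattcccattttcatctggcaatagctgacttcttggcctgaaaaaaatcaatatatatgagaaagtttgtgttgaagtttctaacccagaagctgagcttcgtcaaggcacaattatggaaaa
Sall2 promoter 2: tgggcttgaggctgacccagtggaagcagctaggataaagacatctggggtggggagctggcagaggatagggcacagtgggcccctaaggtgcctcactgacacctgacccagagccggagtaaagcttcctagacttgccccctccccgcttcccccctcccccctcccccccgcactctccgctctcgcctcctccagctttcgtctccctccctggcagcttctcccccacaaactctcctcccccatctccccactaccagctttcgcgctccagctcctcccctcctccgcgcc

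Promoter 1 has a GC content of 30.3% and 1 CpG in 300 bases, and no H3K27ac peak was listed there in any of the 4 libraries. Promoter 2 has a GC content of 65% and 10 CpGs, and its H3K27ac region had the fold enrichments given above for Sall2. No β-catenin site was listed at either.

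Regions of both consensus lists were merged, and each was given the highest fold enrichment of the peaks that overlapped it in each replicate, to compare H3K27ac between libraries at the same positions. The 5 loci held 36 merged regions, of which 31 were in both consensus lists, 2 in the control list only and 3 in the C59 list only. All 4 replicate lists held 31 of the 36. Both control fold enrichments exceeded both C59 values in 4 of these 31 (12.9%), against 19.4% of 17256 such regions genome-wide, and both C59 values exceeded both control values in 7 (22.6%), against 20.9%. In the other 20 the ranges overlapped. The median log2 ratio of C59 to control fold enrichment was 0.05 at the 5 loci and 0.0034 genome-wide. Such a ratio compares enrichment over each library's own background.

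The regions with the lowest ratios at the 5 loci were both in the Zbtb16 window, and were picked out after their values were seen. The first, Zbtb16 region 5 (chr9:48755392-48755948), is intronic and, as merged over both consensus lists, reaches the summit of β-catenin site A. Of the H3K27ac lists, only the C59 consensus peak held that summit, which lay 0.032 kb outside the control consensus peak and in a peak of 0 of the 4 replicates. Its H3K27ac fold enrichment was 9.79 and 10.2 in controls and 6.21 and 6.27 after C59, without overlap, with a log2 ratio of the means of -0.68. Of all 17256 regions in the 4 lists, 0.51% had a ratio as low or lower. The second was the promoter of Rexo2, an RNA exonuclease gene 356 kb from the Zbtb16 TSS (region 1, chr9:48480050-48480660). It had 10.8 and 11.1 in controls and 7.95 and 6.34 after C59, a log2 ratio of -0.61, with 0.852% of regions as low or lower. No β-catenin site was listed there. At 2 libraries against 2, neither difference can reach a p below 0.333. The regions at the Zbtb16 promoter (region 8, log2 ratio -0.08) and beside β-catenin site D (region 6, 0.07) had overlapping ranges.

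At Sall4, 5 of the 9 regions had higher H3K27ac fold enrichment in both C59 replicates than in both control replicates, against 20.9% of all regions, and 1 had lower, against 19.4%. This locus was picked out after its values were seen, and over all 5 loci the count was 7 of 31. These 5 were the promoter of Atp9a (8.16 and 8.96 in controls, 10.1 and 10.6 after C59), an intergenic region at β-catenin site B (4.79 and 4.76, then 5.07 and 5.72), and upstream regions centred 23.2 kb (4.31 and 4.74, then 5.72 and 6.23), 64.0 kb (4.41 and 4.97, then 5.91 and 5.14) and 104 kb from the TSS (4.31 and 4.64, then 5.03 and 5.71). The log2 ratios were small, from 0.18 to 0.40, and 3.12% of all regions had a ratio as high as that of the region at 23.2 kb. The lower region was at the Nfatc2 promoter (6.66 and 6.55, then 5.69 and 5.89). The Sall4 promoter itself had overlapping ranges. The C59 H3K27ac libraries were the deeper ones (5.93 and 5.56 Gb, against 5.03 and 5.39 Gb), and the part of depth in these values was not tested.

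**Figure D4:**
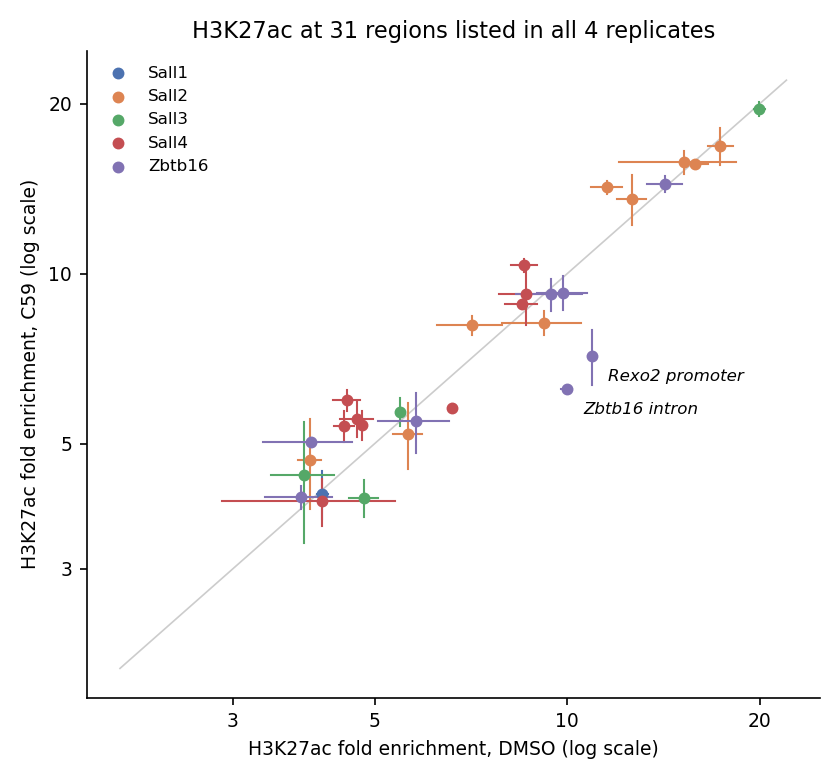
Mean H3K27ac fold enrichment of 31 merged regions in controls (horizontal, log scale) and after C59 (vertical, log scale), coloured by locus, with lines spanning the 2 replicates of each treatment and a grey line of equality. Most regions lie along the line, and the intronic Zbtb16 region (9.98 in controls, 6.24 after C59) and the Rexo2 promoter (10.9 and 7.15) lie below it.

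Most β-catenin sites lay outside H3K27ac peaks, as did most control β-catenin summits genome-wide. Inside a control H3K27ac consensus peak were 4 of 23 summits (17.4%, exact 95% interval 4.95 to 38.8%), against 22.1% of all control β-catenin summits, and inside a C59 H3K27ac peak 5 of 23 (21.7%, against 23%). Another 4 of 23 (also 17.4%, with the same interval) lay outside a control peak but within 1 kb of its edge, against 11.9% of all summits. The closest were Zbtb16 site A at 0.032 kb, Zbtb16 site D at 0.112 kb and Sall3 site B at 0.116 kb. The remaining sites were further away, 12 of 23 by over 10 kb, against 56.8% of all summits. The strong Sall1 site B was 34.2 kb and the strong Sall3 site A 16.6 kb from the nearest control H3K27ac peak.

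In total, 6 H3K27ac regions, as merged over both consensus lists, held a β-catenin site, and they did not move in a common direction after C59. Ranges overlapped in 3 of them, in the Sall1 intron and at the Supt16 and Mettl3 promoters. The region at Sall4 site B was higher after C59 and Zbtb16 region 5 was lower. The last, 67.2 kb upstream of Sall3, was not listed in either control replicate and had fold enrichments of 4.54 and 3.77 in the C59 replicates. It held the summit of β-catenin site C but not that of site D, which is in the same β-catenin peak. Both sites were listed in controls only. The summit of Sall4 site B lay in the control but not the C59 consensus peak, and that of Sall3 site C in the C59 peak only. Each of these 2 summits lay in a peak of 1 of the 4 H3K27ac replicates.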

How the data were processed

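ChIP-seq was performed with antibodies against β-catenin (Invitrogen) and H3K27ac (Abcam ab4729) on forelimb buds of DMSO- and C59-injected embryos. The 8 replicate and 4 consensus peak lists were used. The 4 input samples were not analysed here, and per the methods input did not enter peak calling. The authors mapped reads with Bowtie2 2.4.5, called peaks with MACS2 2.2.7.1 and, for the consensus lists, removed duplicates with Picard 2.27.4, sampled replicates to equal depth, called peaks jointly and retained those whose summit both replicate lists covered. Each deposited row holds a fold enrichment, which is a ratio to the coverage expected in the same library, and the −log10 p-value and q-value of the summit (q threshold 0.05). These are the authors' values, and consensus values have no error of their own. Blacklisted summits were not removed here.

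The members and gene lists were chosen with earlier results of these data known. Named were the members, up to 5 of their strongest control β-catenin summits each, all β-catenin summits after C59, H3K27ac summits less than 1 kb from a member TSS, and neighbouring genes with a summit less than 1 kb from their TSS. Other sites were named after their values were seen. The 8 genes acting with the members were Tbx5, Gli3, Fgf10, Fgf8, Shh, Hand2, Bmp7 and Hoxd13, and the 10 other zinc finger regulators were Gli1, Gli2, Sp6, Sp8, Sp9, Osr1, Osr2, Tshz1, Tshz2 and Tshz3. A further gene of this list is not reported here.

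Gene models were those of GENCODE M21 on GRCm38 (mm10). The fold enrichment and p of a row were solved for whole fragments and expected coverage (tolerance 0.01 on the −log10 p), and the lowest expected coverage times the genome size of the peak calling (1870000000) gave the fragment bases. Replicate counts were compared by two-sided exact permutation tests, shares carry exact (Clopper-Pearson) 95% intervals, a share of 0 is given with the limit of 3 counts, and regions overlapped with at least 1 bp in common. The functions for fragment counts, positions inside regions and motif searches were tested on simulated data, and the exact tests on fixed cases. Alternatives were other windows, stricter thresholds, other overlaps and motif windows, single replicates and pairing by replicate number. Python 3.11.15, numpy 2.4.6, scipy 1.17.1, pysam 0.24.0 and samtools 1.23.1 were used.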

Additional observations from a re-analysis of the deposited data

How the results depend on the processing

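The counts depended on the window more than on the threshold. The 23 control β-catenin summits became 12 with a window of 100 kb, 50 with 500 kb and 15 when the nearest coding TSS had to be that of the member. They were 22 at a −log10 q of at least 5 and also when the lowest −log10 p of the C59 consensus list was required. Single replicates gave 31 to 39. The C59 count of 0 remained 0 with a window of 500 kb and ranged from 0 to 1 in single replicates. A window of 100 kb could not hold more than the 0 of the 200 kb window. The control and C59 H3K27ac counts, 54 and 57, became 100 and 105 with 500 kb, and 23 and 26 by nearest coding TSS. The share of control H3K27ac regions that overlapped a C59 region, 94.1%, became 100% with a window of 100 kb and ranged from 77.8 to 81.8% between single replicates.

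The excess of control over C59 β-catenin summits, 34.5 per replicate, ranged from 31 to 38 when 1 replicate was left out, and was 28 when control summits had to reach the lowest −log10 p of the C59 replicate (an alternative chosen after the data were seen). For H3K27ac, the difference of 6.50 ranged from -2 to 15 and turned direction without replicate 2. Replicates share only a number between treatments. With the replicate number as a block, the differences of 34.5 and 6.50 had p = 0.5 and p = 1 in exact paired tests, where 2 pairs cannot give a p below 0.5. Of the 48 alternatives over 9 results, 36 moved a value by less than its limit, which was 1.5-fold for counts and the 95% interval for shares, and kept the direction of differences. These include alternatives that could not change the value, namely a narrower window or stricter rule at a C59 count of 0, and the replicate block. No groups of 4 or more libraries were available to look for libraries standing apart. The β-catenin libraries were of like depth after C59, but at the same q threshold their lists required a higher −log10 p. This limits what an unlisted site shows: control summits near the C59 threshold, as at Sall2, cannot be called lost.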
